A study of Mus musculus with 9 samples.

Results

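The genes described here were the 53 semaphorin, neuropilin, plexin, Eph receptor and ephrin genes among the 21536 genes in a count table of mouse trigeminal ganglion cells. They were chosen by symbol alone: each symbol that begins Sema, Plxn, Epha, Ephb, Efna or Efnb, together with the neuropilins Nrp1 and Nrp2. They comprise 7 secreted class 3 semaphorins, 13 other semaphorins, 2 neuropilins, 4 plexins of class A, 5 plexins of classes B to D, 9 EphA receptors, 5 EphB receptors, 5 ephrins of class A and 3 of class B. The cells came from wild-type FVB/N mice that were 3 to 6 weeks old by the labels, in 9 Drop-seq runs that each pooled ganglia from many animals of both sexes. Ganglia were dissociated, neurons were enriched on a Percoll gradient, and glia were depleted before single cells were caught in droplets. Drop-seq tags each captured transcript with a unique molecular identifier (UMI), and the table holds the number of UMIs of each gene under each cell barcode. No barcode tells which run it came from, and all cells were treated as 1 pooled sample: values carry no spread between animals and no test between groups was possible, and each interval given below covers counting error only.

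Semaphorins are secreted or membrane-bound guidance proteins that steer axons, dendrites and blood vessels, and plexins are their receptors. Most class 3 semaphorins bind a neuropilin, which signals together with a class A plexin, whereas Sema3e binds plexin D1 directly and the membrane-anchored Sema7a binds plexin C1. Ephrins are cell surface ligands, tethered by a lipid anchor in class A and by a transmembrane domain in class B, and their Eph receptors are tyrosine kinases that signal on contact between cells. Semaphorins are known for repelling growing sensory axons, and ephrins for the mapping of retinal axons and for boundaries between tissues.

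Of 6997 barcodes, 3855 were kept as neurons, having 500 to 7500 detected genes, a UMI of at least 3 of 6 neuronal marker genes and no UMI of the epithelial marker Epcam. By the first marker rule that they met, 2415 neurons fell into 7 groups. These were 244 neurons with Trpm8, the cold-activated channel, 379 with Mrgprd, a receptor of non-peptidergic nociceptors, 49 with the itch receptor Mrgpra3, 57 with the itch peptide gene Nppb, 320 with Cd34, 450 with abundant Nefh, the neurofilament heavy chain, but no Trpv1, and 916 with abundant Calca, which encodes the peptide CGRP, and with the heat-activated channel Trpv1. The Cd34 group also held the highest summed level of the touch channel gene Piezo2, at 1454 UMIs per 1000000 UMIs of the group (CPM). Another 1440 neurons met no rule. The median depth ran from 3406 UMIs per neuron in the Nppb group to 5835.5 in the Cd34 group, and was 1826.5 in the ungrouped neurons. The rules overlapped: 349 neurons met more than 1, among them 149 of the 244 in the Trpm8 group. Summed over 8 glial marker genes, the groups held 169 to 564 CPM, the ungrouped neurons 9539 CPM, and 245 barcodes kept apart as glia-like 131126 CPM.

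At least 1 UMI of a guidance gene was found in 86.5% of the kept neurons, and the 53 genes together made up 0.109% of their UMIs (22738 UMIs). Relative to all UMIs the Trpm8 group held the least, at 371 CPM for the 53 genes summed, and the other 6 groups held 803 to 1606 CPM. With each cell thinned at random to 1000 UMIs, 29.9% of the Trpm8 group held a guidance gene, compared with 54.4% to 79.6% of the other 6 groups and 8.36% of 383 erythroid-like cells, used here as the measure of free RNA (median 1400 UMIs before thinning). The Trpm8 neurons thus held few guidance transcripts at equal depth, while their median depth of 5671 UMIs before thinning was among the deepest.

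To compare levels between groups, UMIs were summed over the cells of a group, expressed as CPM and divided by the CPM of all other kept neurons. A gene was counted as higher where this ratio was at least 2 and as lower where it was at most 0.5, and only the 9315 genes with at least 200 UMIs over all kept neurons were compared. Of the 53 guidance genes, 24 were compared, and these are all described below. Each of the 24 passed the 2-fold limit in at least 1 of the 7 groups, as did 41.6% of all genes compared. In at least 1 of the 5 groups with over 200 neurons it was again 24 of 24, beside 28.8% of all genes. The minimum of 200 UMIs favors genes with 1 high group: outside the group where each was highest, 19 of the 24 still had 200 UMIs, and Sema4b, Sema6a, Sema7a, Plxna3 and Epha4 did not. All 19 passed the limit in at least 1 of the 7 groups, as did 38.5% of the 8702 genes of which the same holds. In at least 1 of the 5 larger groups it was again all 19, beside 25.9%. The counts in single groups below were not redone in this way. They include Sema4b, Sema7a and Epha4 as higher in the Mrgprd, Cd34 and Nefh groups, where each was highest. On a log2 scale of CPM + 1, the median distance from the lowest to the highest of those 5 groups was 3.59 for the 24 genes and 0.86 for all genes, although the guidance genes were counted with fewer UMIs (median 571) than all genes (median 853) and small counts widen such distances. Sema3e, with a distance of 6.38, lay above 99.6% of all genes compared, and Sema3c, the least variable of the 24, lay above 65.2% with a distance of 1.15.

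**Figure D1:**
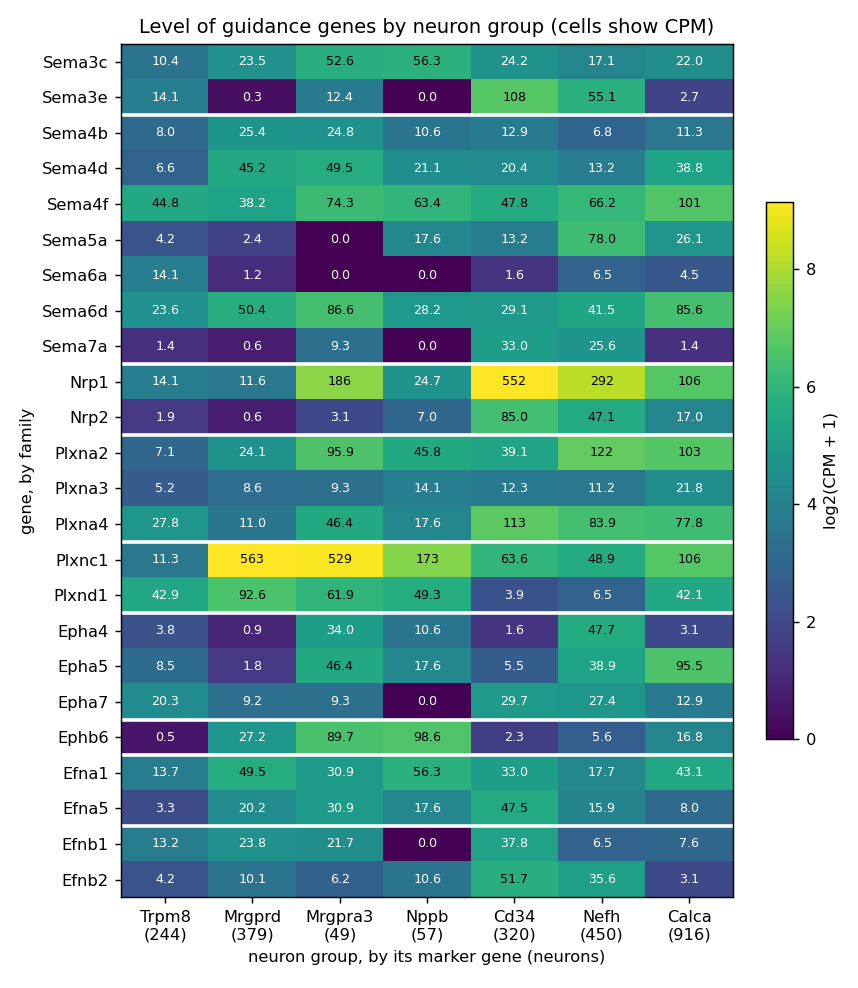
CPM of the 24 compared guidance genes (rows, ordered by family, with white lines between families) in the 7 neuron groups (columns, with the number of neurons); color shows log2(CPM + 1) and the printed value is CPM. Nrp1 and Plxnc1 reached 552 and 563 CPM in different groups, the Trpm8 column holds 5 values above 20 CPM, and several genes were at 0 in the small Mrgpra3 and Nppb groups.

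The Trpm8 group was marked by low levels. Against all other neurons, none of the 24 genes was higher there, beside 2.73% of all genes compared, and 18 of 24 were lower, beside 11.8%. Of these 18, 4 were not past the limit in at least 1 setting. Without neurons that met more than 1 rule, the ratio of Sema3c went from 0.458 to 1.01 and that of Sema3e from 0.426 to 0.883. That of Sema5a went from 0.152 to 0.537 with cells weighing equally, and that of Plxna3 from 0.355 to 0.523 without neurons that had a UMI of a glial marker. Only Sema4b, Sema4f, Sema6a, Plxnd1, Epha7 and Efnb1 stayed within the 2-fold limits in these neurons. Among the 7 groups Sema6a was highest in the Trpm8 group (14.1 CPM). Ungrouped neurons, at 36.2 CPM, held 129 of its 212 UMIs and raised the level it was compared with. The Mrgprd group held 4 of 24 higher (4.99% of all genes) and 12 lower (12.2%): Plxnc1, Plxnd1, Sema4b and Ephb6 were higher, and the neuropilins and plexins Plxna2 and Plxna4 were among the lower genes. The mural cell markers, 3 of 4 with a UMI, were also highest in the Mrgprd group (98 UMIs, 30.0 CPM summed, against 0.821 to 18.6 CPM in the other 6), and their part in these differences was not tested. In the Mrgpra3 group Sema3c, Plxnc1, Epha4 and Ephb6 were higher (4 of 24, beside 4.42% of all genes) and 6 were lower (15%). Of these 6, Efnb2 went from a ratio of 0.319 to 0.971 after thinning, Sema3e from 0.392 to 0.775 without neurons that met more than 1 rule, and Epha7 from 0.484 to 0.640 without the 5% of neurons with the most UMIs. Sema3c and Ephb6 were higher in the Nppb group (2 of 24, beside 4%) and 9 genes were lower (14.8%), of which 4 were at 0 UMIs and not detectably lower at this depth. With the group limits raised by 1 UMI, Nrp2 went from 0.239 to 0.600 and Plxna4 from 0.271 to 0.681. The 11 genes past the limit became 17 without neurons that met more than 1 rule, and also without neurons that had a UMI of a glial marker. The 3 olfactory markers, all with a UMI, were highest in the Nppb group (77.5 CPM summed, against 11.9 to 50.9 CPM in the other 6), and their part was not tested.

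In the Cd34 group 8 of 24 genes were higher, beside 3.21% of all genes, namely Sema3e, Sema7a, Nrp1, Nrp2, Plxna4, Efna5, Efnb1 and Efnb2, and 7 were lower (8.03%), with Sema5a (0.479) just short of the limit when 4 of 6 neuronal markers were required. Cd34 is also known from vessels: all 8 endothelial marker genes had a UMI in this group and summed to 114 CPM there, 14 to 71 CPM in the other 6 groups and 10052 CPM in endothelial-like cells. The Cd34 group also stood above the other 6 in pituitary markers (5 of 6 with a UMI, 903 CPM summed, against 217 to 589) and in neurons with 3 or more glial markers (16.9%, against 0% to 10.2%), whereas the summed glial markers were highest in the Nefh group (564 CPM, with 425 in the Calca and 342 in the Cd34 group). The part of the endothelial and pituitary markers in these differences was not tested. In the Nefh group 6 were higher (3.65%), namely Sema3e, Sema5a, Sema7a, Plxna2, Epha4 and Efnb2, and 6 were lower (7.25%). Of these 6, after thinning Sema4b went from a ratio of 0.469 to 0.987, Sema4d from 0.412 to 0.545 and Ephb6 from 0.376 to 0.593. Sema5a, which was 258 CPM in glia-like cells, was 3.94 times the other neurons in the Nefh group without neurons that had a UMI of a glial marker, instead of 5.08. In the Calca group Sema4f, Sema6d and Epha5 were higher (3 of 24, beside 3.77%) and 8 were lower (6.36%). The 5 fibroblast marker genes, all with a UMI, summed to 352 CPM in the Calca group and 10 to 99 CPM in the other 6, and their part in these differences was not tested. Over all 7 groups, 93 ratios passed the 2-fold limit, and for 52 of them the whole 95% counting interval lay beyond it. The Mrgpra3 and Nppb groups, with 323222 and 283972 UMIs in all, carry little weight for absent genes. Sema6a in both groups, and Sema7a, Epha7 and Efnb1 in the Nppb group, were counted as lower at 0 UMIs, but the level that a count of 0 allows (9.28 and 10.6 CPM, from 3 UMIs) is less than 2-fold below the other neurons, so that these 5 differences were not detectable at this depth.

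**Figure D2:**
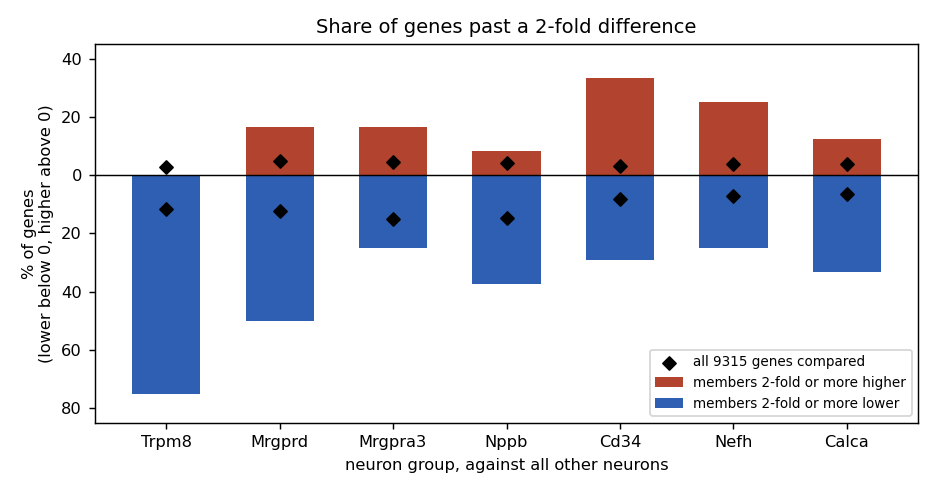
Share (%) of the 24 compared guidance genes at least 2-fold higher (red, above 0) or lower (blue, below 0) in each neuron group than in all other neurons, with black diamonds for all 9315 genes compared. The tallest bar is the 75% of guidance genes that were lower in the Trpm8 group, where 11.8% of all genes were lower.

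Among the secreted semaphorins, Sema3e was concentrated in 2 of the groups. It measured 14.1 CPM in the Trpm8 group, 0.306 in the Mrgprd group, 12.4 in the Mrgpra3 group, 0 in the Nppb group, 108 in the Cd34 group, 55.1 in the Nefh group and 2.67 in the Calca group. The Cd34 group thus stood highest (333 UMIs, interval 96.3 to 119.8 CPM, 5.96 times the other neurons), the Nefh group was next with an interval that did not meet it (47.4 to 63.5 CPM), and the 379 Mrgprd neurons held a single UMI, a ratio of 0.00825 with an interval of 0.000209 to 0.0461. A UMI of Sema3e was present in 45.3% of Cd34 neurons and 20.4% of Nefh neurons, in 1.31% of Calca neurons and in none of the 383 erythroid-like cells (upper limit 0.783%, from 3 cells). Its lower level in the Trpm8 group (ratio 0.426) did not hold without the neurons that met more than 1 group rule, where the ratio was 0.883.

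Sema3c, a class 3 semaphorin that signals through neuropilins, was spread more evenly. It measured 10.4 CPM in the Trpm8 group, 23.5 in the Mrgprd group, 52.6 in the Mrgpra3 group, 56.3 in the Nppb group, 24.2 in the Cd34 group, 17.1 in the Nefh group and 22.0 in the Calca group. The 2 small itch groups were highest, yet with only 17 and 16 UMIs, and in the Mrgpra3 group no UMI was left after thinning to 1000 UMIs per cell. The remaining 5 secreted members fell short of 200 UMIs over all neurons: Sema3f with 172, Sema3b with 118, Sema3d with 69, Sema3a with 21 and Sema3g with 6. Sema3a and Sema3f are the classical repellents of sensory axons, and the neurons themselves held few transcripts of either.

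Of the membrane-bound semaphorins, Sema7a shared the pattern of Sema3e. Sema7a, which is anchored in the membrane by a lipid, measured 1.41 CPM in the Trpm8 group, 0.611 in the Mrgprd group, 9.28 in the Mrgpra3 group, 0 in the Nppb group, 33.0 in the Cd34 group, 25.6 in the Nefh group and 1.44 in the Calca group. The Cd34 and Nefh intervals overlapped (26.9 to 40 and 20.5 to 31.6 CPM), and both lay above those of the Trpm8, Mrgprd and Calca groups, of which the highest upper bound was 4.13 CPM. Counts were small (102 UMIs in the Cd34 group and 148 outside it). With every cell thinned to 1000 UMIs the ratio of the Cd34 group fell from 3.97 to 1.10. Of the 11 alternative settings, this was the only 1 in which it was not past the limit. Thinning left a UMI of Sema7a in 1.09% of all neurons, and thinned ratios are given without an interval. The higher level in the Nefh group, 2.75 times the other neurons, stayed past the 2-fold limit after thinning.

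Sema5a, a transmembrane semaphorin with thrombospondin repeats, was highest in the large-fiber neurons. Its levels were 4.24 CPM in the Trpm8 group, 2.45 in the Mrgprd group, 0 in the Mrgpra3 group, 17.6 in the Nppb group, 13.2 in the Cd34 group, 78.0 in the Nefh group and 26.1 in the Calca group. The Nefh group exceeded the other neurons 5.08-fold (interval 4.27 to 6.05), with a UMI in 22.2% of its neurons, and the Calca interval of 21.7 to 31.0 CPM lay well below that of the Nefh group. In the Mrgpra3 group the absence of a UMI corresponded to a level at least 2.79-fold lower than in the other neurons.

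The class 4 and class 6 semaphorins varied less than Sema5a and Sema7a. Sema4d, the ligand of plexin B1, measured 6.6 CPM in the Trpm8 group, 45.2 in the Mrgprd group, 49.5 in the Mrgpra3 group, 21.1 in the Nppb group, 20.4 in the Cd34 group, 13.2 in the Nefh group and 38.8 in the Calca group. It was lowest in the Trpm8 group (0.209 times the other neurons, interval 0.114 to 0.353) and was highest in the Mrgprd, Mrgpra3 and Calca groups, whose intervals overlapped. Sema4f was detected in every group. It measured 44.8 CPM in the Trpm8 group, 38.2 in the Mrgprd group, 74.3 in the Mrgpra3 group, 63.4 in the Nppb group, 47.8 in the Cd34 group, 66.2 in the Nefh group and 101 in the Calca group, and its ratio of 2.005 in the Calca group stood at the limit and below it in 10 of the 11 alternative settings. Sema6d, a transmembrane ligand of class A plexins, measured 23.6 CPM in the Trpm8 group, 50.4 in the Mrgprd group, 86.6 in the Mrgpra3 group, 28.2 in the Nppb group, 29.1 in the Cd34 group, 41.5 in the Nefh group and 85.6 in the Calca group. The Calca group was again at the limit, with a ratio of 2.05 (interval 1.81 to 2.32) that was below it in 7 of the 11 settings, at 1.69 to 1.98, and the Trpm8 group was lowest.

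For Sema4b, a transmembrane member of class 4, the levels were 8.01 CPM in the Trpm8 group, 25.4 in the Mrgprd group, 24.8 in the Mrgpra3 group, 10.6 in the Nppb group, 12.9 in the Cd34 group, 6.77 in the Nefh group and 11.3 in the Calca group. The Mrgprd group was 2.32 times the other neurons (interval 1.77 to 3.02), but erythroid-like cells held 13.9 CPM of Sema4b (interval 6.38 to 26.5), and after thinning 1.31% of them had a UMI, compared with 0.82% to 2.37% of the 7 groups. The intervals of all 7 groups overlapped that of the erythroid-like cells, and the Mrgprd ratio became 1.92 after thinning. These levels cannot be told apart from free RNA. With 193 UMIs outside the Mrgprd group, Sema4b was compared only because of that group. Sema6a, a ligand of plexins A2 and A4, was an exception among the 24 in that the neurons without a group held most of its UMIs (129 of 212, 36.2 CPM). In the groups it measured 14.1 CPM in the Trpm8 group, 1.22 in the Mrgprd group, 0 in the Mrgpra3 group, 0 in the Nppb group, 1.62 in the Cd34 group, 6.48 in the Nefh group and 4.52 in the Calca group, and the Trpm8 group, with 10.7% of neurons, was highest. Measured against the neurons of the other 6 groups alone, its lower level in the Calca group was no longer past the limit (ratio 0.925 instead of 0.382). The Trpm8 group, at 14.1 CPM, was more than 2-fold above each of the other 6 groups. With 182 UMIs outside the Trpm8 group, Sema6a was compared only because of that group. The members of these classes with under 200 UMIs were Sema4c with 182, Sema4g with 138, Sema6c with 131, Sema4a with 36, Sema5b with 30 and Sema6b with 8.

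Nrp1 and Nrp2, the co-receptors of class 3 semaphorins, were both highest in the Cd34 group and second in the Nefh group. Nrp1 had 4036 UMIs in neurons and measured 14.1 CPM in the Trpm8 group, 11.6 in the Mrgprd group, 186 in the Mrgpra3 group, 24.7 in the Nppb group, 552 in the Cd34 group, 292 in the Nefh group and 106 in the Calca group. The Cd34, Nefh and Calca intervals were separate (526 to 578, 274 to 311 and 97.2 to 116 CPM), whereas those of the Trpm8, Mrgprd and Nppb groups overlapped at the low end. A UMI of Nrp1 was found in 84.7% of Cd34 neurons but 5.28% of Mrgprd neurons, and after thinning to 1000 UMIs in 38.4% and 0.792%, beside 0.783% of erythroid-like cells. In the Calca group its ratio of 0.484 was past the limit, but became 0.532 without neurons that had 3 or more glial markers.

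Nrp2, which pairs with Sema3f and Sema3c, measured 1.89 CPM in the Trpm8 group, 0.611 in the Mrgprd group, 3.09 in the Mrgpra3 group, 7.04 in the Nppb group, 85.0 in the Cd34 group, 47.1 in the Nefh group and 17.0 in the Calca group. In the Cd34 group it was 4.37 times the other neurons (interval 3.71 to 5.14), as Nrp1 was 4.22 times (interval 3.96 to 4.50). The Trpm8, Mrgprd, Mrgpra3 and Nppb groups held 1 to 4 UMIs each. Of the 368 neurons with a UMI of Nrp2, 77.2% also had one of Nrp1. Both transcripts occurred in 284 neurons, where the product of their shares within each group gave 192, and the neurons with both had a median of 7283.5 UMIs, so that depth moved with this count and its part, here and in the pairs below, was not tested.

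The class A plexins, which signal with neuropilins or bind class 6 semaphorins, were highest in different groups. Plxna2 measured 7.07 CPM in the Trpm8 group, 24.1 in the Mrgprd group, 95.9 in the Mrgpra3 group, 45.8 in the Nppb group, 39.1 in the Cd34 group, 122 in the Nefh group and 103 in the Calca group. The Nefh and Calca intervals met (111 to 135 and 94.6 to 113 CPM), and the Trpm8 group was lowest with 0.0960 times the other neurons. The Nefh ratio of 2.17 became 1.87 without the neurons that met more than 1 group rule. Plxna4 measured 27.8 CPM in the Trpm8 group, 11 in the Mrgprd group, 46.4 in the Mrgpra3 group, 17.6 in the Nppb group, 113 in the Cd34 group, 83.9 in the Nefh group and 77.8 in the Calca group, with the Cd34 group at 2.03 times the other neurons, a ratio below the limit in 6 of the 11 alternative settings. Its low level in the Mrgprd group (ratio 0.149, interval 0.104 to 0.207) was clear of the limit. Within that group, 48 neurons with Agtr1a or Mrgpra1 held 65.4 CPM of Plxna4 (19 UMIs). A UMI of Plxna4 was present in 461 neurons with Nrp1, beside 339 from the shares within each group, and one of Plxna2 in 348 neurons with Nrp1, beside 274.

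Plxna3, which acts with Nrp2, had only 286 UMIs over all neurons and ranged from 5.19 CPM in the Trpm8 group to 21.8 CPM in the Calca group. The Trpm8 group alone passed the limit (ratio 0.355, interval 0.175 to 0.645). With 180 UMIs outside the Calca group, Plxna3 was compared only because of that group. The last class A plexin, Plxna1, had 182 UMIs and was not compared. The class B plexins were equally sparse, with 154 UMIs of Plxnb2, 54 of Plxnb1 and 37 of Plxnb3.

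Plxnc1, the receptor of Sema7a, had 3347 UMIs in these neurons and was highest in the Mrgprd and Mrgpra3 groups. It measured 11.3 CPM in the Trpm8 group, 563 in the Mrgprd group, 529 in the Mrgpra3 group, 173 in the Nppb group, 63.6 in the Cd34 group, 48.9 in the Nefh group and 106 in the Calca group. The Mrgprd and Mrgpra3 intervals overlapped (538 to 589 and 453 to 615 CPM), the Nppb group was next, and the Trpm8 group was lowest. Against all other neurons the Mrgprd group was 6.604-fold higher (interval 6.17 to 7.07), and 87.3% of its neurons had a UMI, or 41.7% after thinning, beside 0.783% of erythroid-like cells.

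Plxnd1, the receptor of Sema3e, was also highest in the Mrgprd group, with an interval that overlapped that of the Mrgpra3 group. Its levels were 42.9 CPM in the Trpm8 group, 92.6 in the Mrgprd group, 61.9 in the Mrgpra3 group, 49.3 in the Nppb group, 3.88 in the Cd34 group, 6.48 in the Nefh group and 42.1 in the Calca group. The Mrgprd group was 3.38-fold higher than the other neurons (interval 2.92 to 3.92), the Trpm8, Nppb and Calca groups lay close together, and the Cd34 and Nefh groups were lowest with ratios of 0.0893 and 0.149. Plxnc1 and Plxnd1 were found together in 305 neurons, beside 251 from the shares within each group.

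The receptors Plxnd1 and Plxnc1 were each at least 2-fold lower than in the other neurons in the Cd34 and Nefh groups. Sema3e was highest in the Cd34 and Nefh groups, where Plxnd1 was 3.88 and 6.48 CPM, and Plxnd1 was highest in the Mrgprd group, where Sema3e was 0.306 CPM. Sema7a was highest in the same 2 groups as Sema3e, in which Plxnc1 was 63.6 and 48.9 CPM, and Plxnc1 was highest in the Mrgprd group, where Sema7a was 0.611 CPM. The Trpm8 group did not follow this pattern: Plxnc1 was lowest there (11.3 CPM), and Sema7a was also counted as lower. Sema7a was compared only because of the Cd34 group, and its ratio in the Cd34 group was 1.10 after thinning. In single neurons Sema3e and Plxnd1 were found together in 19 of the 339 neurons with Sema3e, beside 50.04 from the product of their shares over all neurons and 22.3 from the shares within each group. Sema7a and Plxnc1 were found together in 70 neurons, beside 58.6 over all neurons and 49.8 within the groups, at a median of 18606 UMIs. Whether the ligands of one group reach the receptors of another was not measured.

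**Figure D3:**
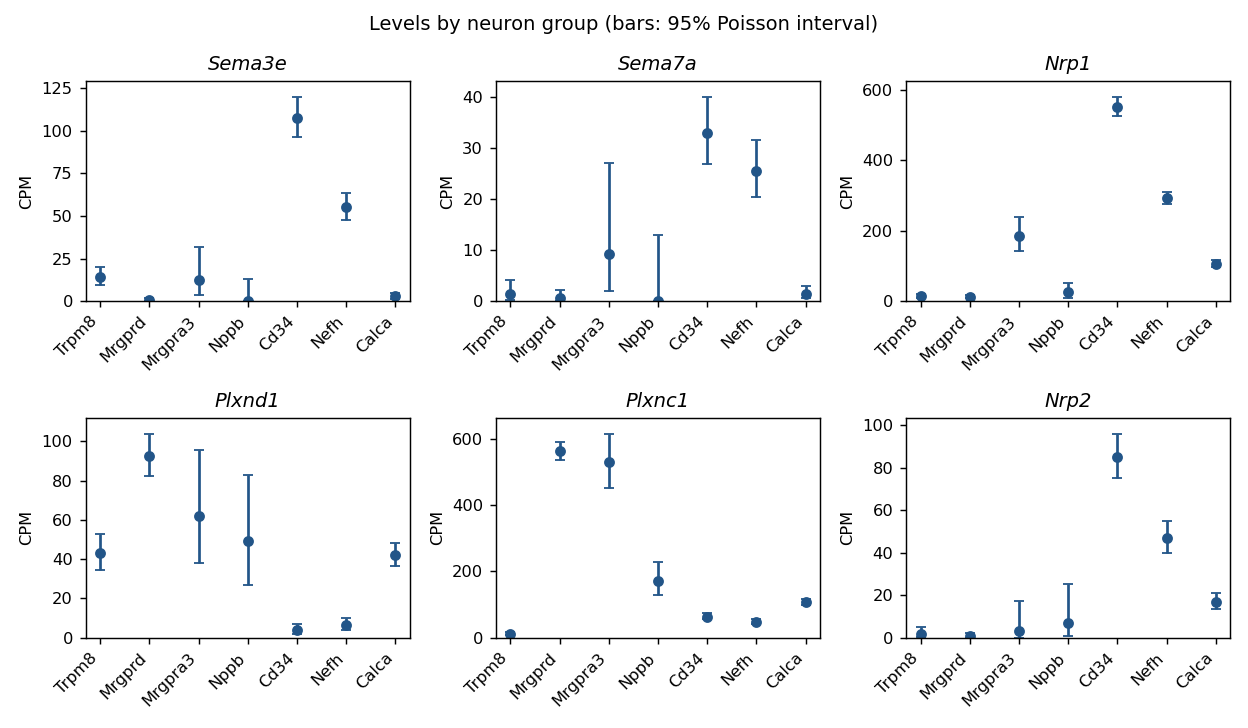
CPM (linear axis) of Sema3e, Sema7a and Nrp1 (top row) and of Plxnd1, Plxnc1 and Nrp2 (bottom row) in the 7 neuron groups; points are summed levels and bars are 95% Poisson intervals for counting error. Sema3e peaks in the Cd34 group, where Plxnd1 is at 3.88 CPM, the Cd34 and Nefh bars of Sema7a overlap, and Plxnd1 and Plxnc1 peak in the Mrgprd group, where Sema3e is at 0.306 CPM.

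The 150 bases before the annotated start of these 4 genes are shown because they are the ligand and receptor pairs on which the comparison of groups turns. Sequences and starts are from RefSeq on GRCm38.p6, which is the assembly of the submitters' mm10, and each is printed 5′ to 3′ on the strand of the gene with every CG dinucleotide in capitals. Sema3e lies on the plus strand (window chr5:14025126-14025275), Plxnd1 on the minus strand (chr6:115995006-115995155), Sema7a on the plus strand (chr9:57939962-57940111) and Plxnc1 on the minus strand (chr10:94944846-94944995).
Sema3e: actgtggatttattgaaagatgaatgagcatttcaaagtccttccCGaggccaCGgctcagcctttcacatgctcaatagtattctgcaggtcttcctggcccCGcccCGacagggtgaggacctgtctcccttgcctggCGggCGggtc
Plxnd1: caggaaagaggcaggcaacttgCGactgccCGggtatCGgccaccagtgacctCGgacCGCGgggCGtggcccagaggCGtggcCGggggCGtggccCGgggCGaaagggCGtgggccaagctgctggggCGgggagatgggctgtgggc
Sema7a: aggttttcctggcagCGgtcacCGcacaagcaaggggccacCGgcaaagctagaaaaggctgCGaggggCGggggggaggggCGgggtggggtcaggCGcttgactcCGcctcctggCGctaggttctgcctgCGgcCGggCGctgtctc
Plxnc1: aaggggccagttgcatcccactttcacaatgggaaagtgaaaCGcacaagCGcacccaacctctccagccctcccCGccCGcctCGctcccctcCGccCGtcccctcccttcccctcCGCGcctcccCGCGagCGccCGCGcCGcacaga

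The Sema3e window holds 6 CG dinucleotides, fewer than the 14 of Plxnd1, 12 of Sema7a and 15 of Plxnc1. Of 32851 such windows in the table, 41.4% hold as many CG as that of Sema3e or more, against 17.9% for Plxnd1, 23.1% for Sema7a and 15.3% for Plxnc1. The core letters TGTGGT of the motif bound by Runx factors were searched on both strands of the 300 bases around each start (250 before and 50 after). They were in none of the 4 windows and in 16.8% of all 32851. This describes the letters only. Of the 53 genes, 47 matched an entry of the promoter table.

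Of the Eph receptors with enough UMIs, Epha5 was highest in the Calca group, Epha4 in the Nefh group and Ephb6 in the 2 itch groups. Epha5, a receptor of class A ephrins, measured 8.49 CPM in the Trpm8 group, 1.83 in the Mrgprd group, 46.4 in the Mrgpra3 group, 17.6 in the Nppb group, 5.49 in the Cd34 group, 38.9 in the Nefh group and 95.5 in the Calca group. The Calca group was 4.25-fold above the other neurons (interval 3.69 to 4.89), the Nefh and Mrgpra3 groups had overlapping intervals below it, and the Mrgprd group held only 6 UMIs. Epha4, which binds ephrins of both classes, measured 3.77 CPM in the Trpm8 group, 0.917 in the Mrgprd group, 34.0 in the Mrgpra3 group, 10.6 in the Nppb group, 1.62 in the Cd34 group, 47.7 in the Nefh group and 3.08 in the Calca group. It was 9.09-fold higher in the Nefh group than in the other neurons (interval 6.99 to 11.9), but only 92 of its 254 UMIs lay outside that group, so that it was compared only because of it. The Calca and Cd34 groups were lower, with ratios of 0.207 and 0.116. The Mrgpra3 level rests on 11 UMIs, and its ratio of 2.89 became 1.55 after thinning.

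Ephb6, an Eph receptor whose kinase domain is inactive, was a gene of the itch and Mrgprd groups. Its levels were 0.471 CPM in the Trpm8 group, 27.2 in the Mrgprd group, 89.7 in the Mrgpra3 group, 98.6 in the Nppb group, 2.26 in the Cd34 group, 5.59 in the Nefh group and 16.8 in the Calca group. The Nppb and Mrgpra3 groups were 8.08-fold and 7.36-fold higher than the other neurons (intervals 5.26 to 11.96 and 4.83 to 10.8), with a UMI in 38.6% and 38.8% of their neurons, and the Mrgprd group was below both, with a ratio of 2.51 that became 1.60 without neurons that had a UMI of a glial marker. In the Trpm8 group a single UMI was found in 244 neurons. Epha7 was more even: it measured 20.3 CPM in the Trpm8 group, 9.17 in the Mrgprd group, 9.28 in the Mrgpra3 group, 0 in the Nppb group, 29.7 in the Cd34 group, 27.4 in the Nefh group and 12.9 in the Calca group, and its lower ratio in the Mrgprd group (0.440) became 0.583 without neurons that had a UMI of a glial marker. The other Eph receptors were not compared: Epha10 with 87 UMIs, Epha3 with 85, Epha6 with 79, Ephb2 with 68, Ephb1 with 49, Ephb3 with 44, Epha8 with 21, Ephb4 with 15, Epha1 with 4 and Epha2 with 1.

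All 3 ephrins counted as higher in any group were highest in the Cd34 group. Efnb2, a transmembrane ligand of EphB receptors and Epha4, measured 4.24 CPM in the Trpm8 group, 10.1 in the Mrgprd group, 6.19 in the Mrgpra3 group, 10.6 in the Nppb group, 51.7 in the Cd34 group, 35.6 in the Nefh group and 3.08 in the Calca group. The Cd34 and Nefh groups were 3.81-fold and 2.22-fold higher than the other neurons, with intervals that did not overlap in CPM (44.0 to 60.4 and 29.6 to 42.6), and the Calca group was lower (ratio 0.128). Its ratio in the Mrgprd group (0.483) became 1.01 after thinning. Efnb2 and Epha4 were found together in 34 neurons, beside 18.3 from the shares within each group.

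Efna5, a lipid-anchored ligand of EphA receptors, measured 3.30 CPM in the Trpm8 group, 20.2 in the Mrgprd group, 30.9 in the Mrgpra3 group, 17.6 in the Nppb group, 47.5 in the Cd34 group, 15.9 in the Nefh group and 8.01 in the Calca group. In the Cd34 group it was 3.48-fold higher (interval 2.82 to 4.29), and in the Trpm8 group it was lowest. The Calca group, with the most Epha5, held little Efna5 (ratio 0.366, or 0.630 after thinning), and both transcripts were found in 41 neurons, beside 26.5 from the shares within each group and 38.1 over all neurons. Efnb1 measured 13.2 CPM in the Trpm8 group, 23.8 in the Mrgprd group, 21.7 in the Mrgpra3 group, 0 in the Nppb group, 37.8 in the Cd34 group, 6.48 in the Nefh group and 7.597 in the Calca group. Its Cd34 ratio was 3.05 (interval 2.42 to 3.83), whereas the Nefh group, unlike for Efnb2, was lower (ratio 0.359).

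Efna1 was within the 2-fold limits in all groups but the Trpm8 group. It ranged from 13.7 CPM there (ratio 0.398, interval 0.264 to 0.577) to 56.3 CPM in the Nppb group, whose interval of 32.2 to 91.5 CPM overlapped that of the Mrgprd group. The sparse ephrins were Efnb3 with 93 UMIs, Efna2 with 60, Efna3 with 44 and Efna4 with 7.

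Within the larger groups, guidance genes also differed between neurons split by markers of subtypes. Genes with at least 50 UMIs over both sides were compared, and neurons with markers of both sides or of neither were left out. This minimum favors genes with 1 high side, and the counts of genes past the limit were not redone without such genes. In the Nefh group, 84 neurons with Ntrk2, the receptor of BDNF, were set against 141 with Calca, and 225 were left out. The median depth was 4286 UMIs in the Ntrk2 neurons and 5399 in the Calca neurons. Of 12 guidance genes, 5 passed the 2-fold limit, beside 7.46% of all genes compared there. The side with the lower level held 7 to 42 UMIs of each of these 5. Sema3e was 89.3 CPM in the Ntrk2 neurons and 32.5 CPM in the Calca neurons (ratio 2.75, interval 1.79 to 4.25). Sema5a was the reverse, at 26.8 and 143 CPM (ratio 0.187, interval 0.103 to 0.317), as was Epha5 at 12.5 and 65.7 CPM (ratio 0.19, interval 0.0743 to 0.409). After thinning to 1000 UMIs these ratios were 0.387 and 0.336. Of the 265 UMIs of Sema5a in the whole Nefh group, 185 were in these Calca-bearing neurons. Calca was also 332 CPM in the Cd34 group and 646 CPM in the Mrgprd group. The part of free Calca RNA in this side was not tested. Efnb2 was higher in the Ntrk2 neurons (ratio 2.17), and the higher Epha4 there (ratio 2.48) turned to 0.839 after thinning.

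In the Calca group, 202 neurons with Trpa1, Mfap5 or Gpr83 were set against 184 with Cyp1b1, Kit or Kcnk3, and 4 of 12 guidance genes passed the limit, beside 4.99% of all genes. Epha5 was 55.7 CPM in the former and 153 CPM in the latter (ratio 0.365, interval 0.258 to 0.508). Nrp1 was 89.8 and 208 CPM (ratio 0.432, interval 0.329 to 0.564) and Sema5a was 12.5 and 54.0 CPM (ratio 0.231, interval 0.109 to 0.449), both higher in the Cyp1b1, Kit or Kcnk3 neurons. Plxnc1 was higher in the Trpa1, Mfap5 or Gpr83 neurons (133 and 62.5 CPM, ratio 2.13), but the ratio was 1.29 after thinning.

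**Figure D4:**
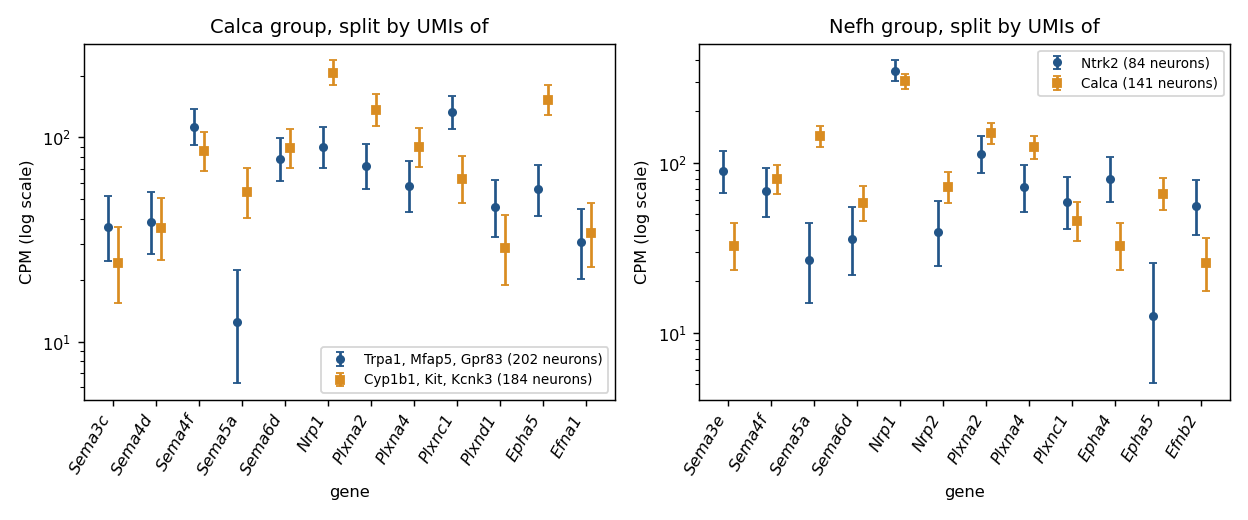
CPM (log axis) of the guidance genes compared within the Calca group (left) and the Nefh group (right), each split by UMIs of subtype markers; points are summed levels, bars are 95% Poisson intervals, and the 2 colors are the 2 sides. Sema5a and Epha5 differ between the sides in both panels, at 12.5 and 54.0 CPM for Sema5a on the left.

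In the Mrgprd group, 102 neurons with Otoa, Prkcq or Mrgprb5 were set against 48 with Agtr1a or Mrgpra1. Of 3 guidance genes with enough UMIs, Plxnc1 passed the limit (693 and 317 CPM, ratio 2.19, interval 1.74 to 2.78), beside 4.27% of all genes. The ratio was 1.48 after thinning. Plxna4, too sparse to be compared, was 3.41 CPM (2 UMIs) on the first side and 65.4 CPM (19 UMIs) on the second. Nrp1, also too sparse, had 1 and 13 UMIs. In the Trpm8 group, 105 neurons with Ociad2 or Cpne9 were set against 51 with Ndrg1 or Angpt4, and neither of the 2 guidance genes compared, Sema4f and Plxnd1, passed it, beside 12.2% of all genes. Among members too sparse there to be compared, Sema3e had 22 UMIs among the 919745 of the Ociad2 or Cpne9 neurons and 0 among the 405281 of the others, and Sema3c had 0 and 12.

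Several members were higher in barcodes of other cell types than in neurons. In 245 glia-like barcodes, which had at least 3 glial markers, Sema6a was 325 CPM (interval 273 to 383), against 10.1 CPM in all neurons. Sema5a was 258 against 25.5 CPM, Sema3b 228 against 5.64, Efnb3 221 against 4.44, Sema4d 166 against 29.1, Plxnb3 119.7 against 1.77 and Ephb1 76.0 against 2.34 CPM. In 114 endothelial-like barcodes (median 1468.5 UMIs) Nrp1 was 838 against 193 CPM, with a UMI in 64.9% of cells. Efnb2, a marker of arteries, was 159.6 against 19.2 CPM there, and Plxnd1 was 155 against 37.6 CPM. Sema3g and Ephb4, with 6 and 15 UMIs in all neurons, were 54.9 and 39.9 CPM in endothelial-like cells. In erythroid-like cells the guidance genes ranged from 0 to 13.9 CPM. Neurons held 0.287 CPM of Sema3g and 0.717 CPM of Ephb4. Plxnd1, at 155 CPM in endothelial-like cells, was 3.88 CPM in the Cd34 group. Efnb2, at 159.6 CPM in endothelial-like cells, was 51.7 CPM in the Cd34 group, and Nrp1 was 552 CPM there. The part of endothelial RNA in the levels of the Cd34 group was not tested.

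**Figure D5:**
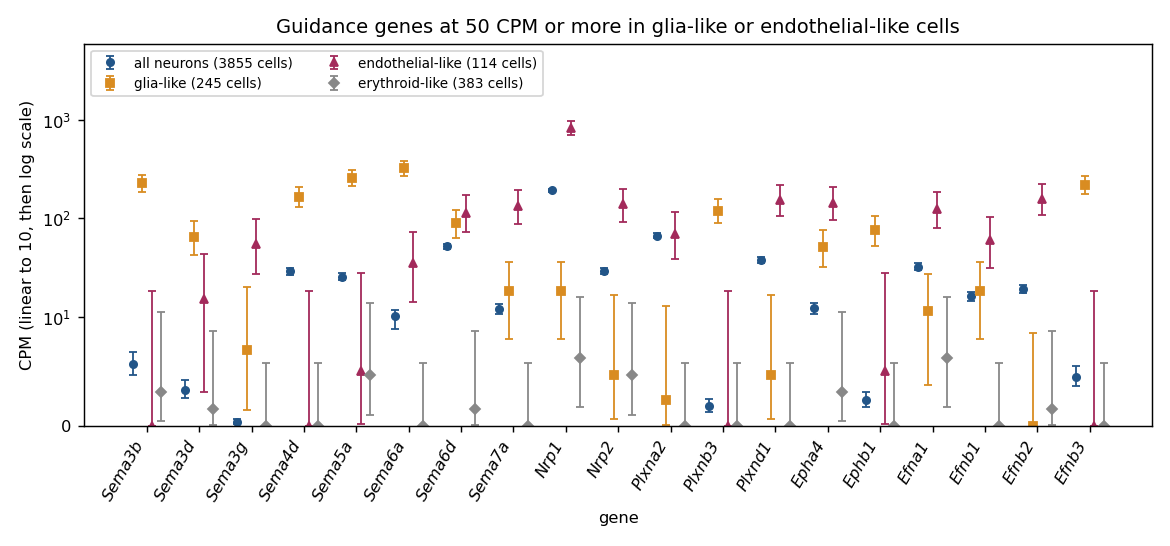
CPM (linear to 10, then log) of the guidance genes at 50 CPM or more in glia-like or endothelial-like cells, in all neurons (blue), glia-like (orange), endothelial-like (red) and erythroid-like cells (grey), with 95% Poisson intervals. Sema6a, Sema5a, Sema3b, Efnb3 and Plxnb3 are each higher in glia-like cells than in the other 3 sets, and Nrp1 is higher in endothelial-like cells, at 838 CPM.

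Efnb3, Plxnb3, Ephb1 and Sema6a, which were high in glia-like cells, were found in the kept neurons mostly in those of no group. Of the 93 neuron UMIs of Efnb3, 73 were in 114 ungrouped neurons that had 3 or more of the 8 glial markers, as were 28 of 37 for Plxnb3, 29 of 49 for Ephb1 and 64 of 212 for Sema6a. Of Sema5a, Sema3b and Sema4d, also higher in glia-like cells, most neuron UMIs were in the groups. In the 1326 ungrouped neurons with fewer glial markers, Efnb3 measured 1.58 CPM and Sema6a 20.6 CPM, compared with 181 and 158 CPM in the 114. Without all neurons that had 3 or more glial markers, 87 of the 93 ratios past the limit stayed past it, and without all neurons that had any UMI of a glial marker 81 did. In the latter setting Efnb1 in the Calca group went from a ratio of 0.405 to 0.820.

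Genes of related pathways were counted in the same way. Of 22 Slit, Robo, netrin and repulsive guidance molecule genes, 6 were compared and 4 passed the 2-fold limit in some group (Slit1, Ntng1, Neo1 and Unc5c). Ntng1, which encodes netrin-G1, was 62.7 CPM in the Nefh group, 22.0 times the other neurons (interval 16.1 to 30.5), and at most 5.17 CPM in the other 6 groups, but only 50 of its 263 UMIs lay outside the Nefh group, so that it was compared only because of it. Of 24 plexin effectors and co-receptors, 19 were compared and 8 passed the limit (Dpysl4, Mical1, Mical2, Arhgef11, Fyn, Chl1, Nrcam and Limk1). Of 14 Eph effectors, 10 were compared and 6 passed it (Vav2, Vav3, Kalrn, Rasa1, Nck1 and Chn1). The guanine nucleotide exchange factor Vav3 was 70.4 CPM in the Cd34 group, 4.6 times the other neurons (interval 3.83 to 5.52), and Kalrn was highest in the Trpm8 group at 93.8 CPM, 4.03 times the other neurons (interval 3.39 to 4.77). Thus 18 of 35 such genes passed, beside 41.6% of all genes compared. Of the 33 with 200 UMIs outside the group where each was highest, which leaves out Ntng1 and Unc5c, 16 passed, beside 38.5% of the genes of which the same holds.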

How the data were processed

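Per the submitters' processing notes, the authors demultiplexed reads with bcl2fastq 2.17, aligned them to mm10 with STAR 2.5.3a and clustered cells with Seurat 1.4.0.16. The deposited table holds raw counts, the number of UMIs of each gene under each of 6997 barcodes (30491529 UMIs, 1000 to 190815 per barcode, median 2031), and no barcode names its run. The genes, lists, group rules and splits were chosen with earlier results of these data known. Neurons were set by the rule given above (markers Tubb3, Scn9a, Snap25, Nefl, Nefm and Uchl1), and groups by the first match of at least 2 UMIs of Trpm8, 2 of Mrgprd, 1 of Mrgpra3, 2 of Nppb, 1 of Cd34, 5 of Nefh with 0 of Trpv1, and 5 of Calca with 1 of Trpv1. Glia-like, endothelial-like and erythroid-like barcodes had 200 to 8500 genes, at least 3 markers of that type and at most 1 neuronal marker. Every compared member that passed the 2-fold limit in a group was described with its values, and members under 200 UMIs were named by their total.

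UMIs were summed per group with Python 3.11.15, numpy 2.4.6 and pandas 2.3.3. CPM intervals are exact Poisson, shares use Clopper-Pearson and ratios the conditional binomial (scipy 1.17.1), all at 95%. They cover counting error only, and no p-value was computed, since cells of 1 pool are not replicates. Doublets were not called. The limit of 7500 genes and the settings without the 349 neurons that met several group rules, without the 5% of neurons with the most UMIs and without neurons that had glial markers bear on them. Counts come from transcript ends, so each gene was compared with itself across groups, not with other genes.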

Additional observations from a re-analysis of the deposited data

How the results depend on the processing

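Of the 93 ratios past the 2-fold limit, 64 stayed past it in the same direction under all 11 alternative settings and 29 did not in at least 1. Of these settings, 3 were chosen after the data were seen: leaving out neurons with 3 or more glial markers (87 of 93 stayed past it), leaving out neurons whose barcodes share their first 11 bases with another (93), and comparing with the other 6 groups only (91). Thinning every cell to 1000 UMIs left the fewest of the 93 past it among the 11 settings (78). Thinned ratios rest on fewer UMIs and are given without an interval. Leaving out neurons with any UMI of a glial marker left 81. Ratios that turned were those of Sema3c in the Trpm8 group (1.01 without neurons that met more than 1 rule), Sema3c in the Mrgpra3 group (0 after thinning), Efnb2 in the Mrgprd group (1.01 after thinning) and Epha4 between the Ntrk2 and Calca neurons of the Nefh group (0.839 after thinning). The number of guidance genes past the limit in the Nppb group was 11, and 17 both without neurons that met more than 1 rule and without neurons that had a UMI of a glial marker. With a fold of 3 it was 6 in the Mrgpra3 group, 4 in the Nefh group and 5 in the Calca group, instead of 10, 12 and 11. With at least 50 UMIs, 39 genes were compared, and the count was 25 in the Mrgprd, 16 in the Mrgpra3, 20 in the Nppb, 27 in the Cd34, 19 in the Nefh and 19 in the Calca group, and 39 in any group. With at least 500 UMIs, 13 genes were compared, and the count was 11 in the Trpm8, 9 in the Mrgprd, 4 in the Mrgpra3, 5 in the Nppb, 8 in the Cd34, 6 in the Nefh and 5 in the Calca group, and 13 in any group. These counts follow the number of genes compared. No paired analysis was possible because the barcodes name no run, for which reason leaving out runs could not be tried either.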
